A study of Homo sapiens with 6 samples.

Results

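Cathepsins are proteases that work mainly in lysosomes, and cystatins are the proteins that inhibit the cysteine cathepsins. The set described here holds 10 genes, 6 cathepsins (CTSB, CTSD, CTSH, CTSS, CTSZ and CTSV) and 4 cystatins (CST3, CST5, CST6 and CSTB), out of 25442 genes on the primary chromosomes of the deposited table. Its members were picked by name with their values in the comparison below already known, so their differences between the cells are given as a description and without a test. All 10 averaged 1 FPKM or more over the libraries, the condition for entering the test across genes, as did 12493 genes in all.

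The data are RNA-seq of YAPC cells, a human line of pancreatic ductal adenocarcinoma (PDA). YAPC-iGLI2 cells carried a Dox-inducible retroviral plasmid, pRetroX-Tight-Puro, with GLI2, a transcription factor of the Hedgehog pathway, and YAPC-iEV cells carried the same plasmid as an empty vector. Both groups were kept in Dox for 6 days, and 3 libraries were made from each, so the comparison is between induced GLI2 and an empty vector in the same drug. The labels do not say whether the 3 libraries of a group came from separate cultures, and p-values then measure the spread between these libraries, which may be technical. Whether the transduced cells were pools or clones is not given in the sources used here.

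Most cathepsins of the set are cysteine proteases of the papain family. They are made as inactive precursors, carried to the lysosome by receptors for mannose 6-phosphate and sortilins, and activated there at low pH. Cystatins such as CST3 are secreted, whereas CSTB stays in the cytosol and the nucleus. In pancreatic cancer, cathepsins are known from both tumor cells and the macrophages around them.

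GLI2 itself was 0.466, 0.412 and 0.344 FPKM in iEV replicates 1 to 3, and 94.5, 207 and 195 FPKM in iGLI2 replicates 1 to 3, so each library had the GLI2 level of its label. FPKM is the number of fragments scaled to the length of the transcript and to the size of the library, and fold changes below are differences of log2(FPKM + 1), iGLI2 minus iEV. Adding 1 understates the change of genes with low values. In iGLI2 replicate 1, GLI2 reached 0.470 of the mean of replicates 2 and 3.

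In every library the epithelial markers summed to far more than the leukocyte or the fibroblast markers. The 6 epithelial markers summed to 1890 to 2044 FPKM in iEV libraries and 1728 to 2010 FPKM in iGLI2 libraries, although KRT8 and KRT18, both keratins of simple epithelia, were listed at 0 throughout. These values of 0, and those of the other markers below, are given as listed and not as absence. Of 10 leukocyte markers, 8 stayed under 1 FPKM in every library, PTPRC and CSF1R among them, and TYROBP and MRC1 were listed at 0 in all 6. The leukocyte sum was 7.56 to 8.33 FPKM in iEV and 4.15 to 5.22 FPKM in iGLI2 libraries and came mostly from CD14 and CD68. Of 9 fibroblast markers, 8 stayed under 1 FPKM and DCN was listed at 0. The fibroblast sum was 1.54 to 1.65 FPKM in iEV and 2.46 to 3.14 FPKM in iGLI2 libraries. It came mostly from COL1A1, which averaged 1.41 FPKM in iEV and 2.69 FPKM in iGLI2 libraries.

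CTSV, an endopeptidase of the papain family closely related to CTSL, was the member with the largest increase. It lies on chromosome 9 of hg19 from 99791959 to 99801925, on the minus strand. Its values were 4.18, 3.85 and 3.89 FPKM in iEV replicates 1 to 3 and 22.3, 27.2 and 28.2 FPKM in iGLI2 replicates 1 to 3. The groups were far apart, with little spread among the iEV libraries. On average CTSV went from 3.97 ± 0.18 to 25.9 ± 3.2 FPKM (SD, n = 3), a ratio of 6.52, and its log2 fold change was 2.43 (SE 0.10). By that fold change CTSV stood at rank 68 from the top of the 12493 genes tested. In iEV cells 23.4% of the genes tested had a lower mean than CTSV, against 72.0% in iGLI2 cells.

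CTSL, its nearest relative in the family, was 61.7, 65.6 and 65.0 FPKM in the iEV libraries, against 55.2, 70.9 and 66.5 FPKM with GLI2 induced. Those ranges overlap, and the log2 fold change of CTSL was -0.01 (SE 0.10, adjusted p = 0.976, limma). The coding sequences of CTSV and CTSL were identical at 78.5% of aligned bases, with a longest identical run of 40 bases, and how reads matching both genes were counted is not stated. The promoters of both genes are shown because these close relatives carry one long shared stretch. They are the 250 bases before the annotated start in RefSeq for GRCh38.p14, 5′ to 3′ on the strand of the gene, with the longest run that both hold in capitals.
CTSV, chr9:97039143-97039392, minus strand: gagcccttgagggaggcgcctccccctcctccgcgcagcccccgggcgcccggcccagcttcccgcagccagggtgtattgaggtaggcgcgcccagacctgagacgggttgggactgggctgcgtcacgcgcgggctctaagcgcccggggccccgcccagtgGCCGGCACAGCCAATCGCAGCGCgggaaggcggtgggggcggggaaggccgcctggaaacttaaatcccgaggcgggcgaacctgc
CTSL, chr9:87725869-87726118, plus strand: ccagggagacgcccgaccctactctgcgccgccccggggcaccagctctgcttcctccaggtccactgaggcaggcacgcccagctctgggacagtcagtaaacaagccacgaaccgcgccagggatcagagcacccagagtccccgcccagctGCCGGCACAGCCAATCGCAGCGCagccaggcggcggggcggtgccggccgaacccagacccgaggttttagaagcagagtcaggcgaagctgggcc

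The run of 23 bases lies 86 to 64 bases before the start of CTSV and 96 to 74 bases before that of CTSL. Aligned over 264 columns, the promoters of this pair were identical at 65.5%. The run holds CCAAT, the letters of the CCAAT box, which were found on either strand in 33% of 27305 RefSeq promoters of this length. The GLI consensus GACCACCCA was in neither promoter and in 0.216% of all of them, both strands searched. A motif this rare is missing from nearly every promoter, so its absence does not tell whether GLI2 binds near these genes. The stretch searched also ends short of the GLI sites that the paper tested in the SPP1 and BCL2 promoters, which lie farther upstream. Binding of GLI2 was not tested here.

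CTSB, which cuts inside proteins and also trims dipeptides from their ends, was the most abundant cysteine cathepsin of iGLI2 cells. It lies on chromosome 8 of hg19 from 11700034 to 11725646, on the minus strand. CTSB was 180, 209 and 202 FPKM in iEV libraries and 339, 479 and 472 FPKM in iGLI2 libraries, so the groups did not overlap and iGLI2 replicate 1 was the lowest of its group. The means were 197 ± 15 and 430 ± 79 FPKM (SD, n = 3), a ratio of 2.18, with a log2 fold change of 1.11 (SE 0.15).

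CTSH, an aminopeptidase, lies on chromosome 15 from 79214092 to 79237420 on the minus strand. Its values were 83.1, 86.8 and 82.3 FPKM in iEV libraries and 128, 200 and 218 FPKM in iGLI2 libraries. The iEV libraries were close together, the iGLI2 libraries were spread, and no iGLI2 value fell within the iEV range. The means were 84.1 ± 2.4 and 182 ± 47 FPKM (SD, n = 3), with a log2 fold change of 1.07 (SE 0.20). Its log2 fold change was 1.30 without iGLI2 replicate 1 and 0.92 without iGLI2 replicate 3.

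CTSZ, a carboxypeptidase, was the most abundant cysteine cathepsin of iEV cells and was lower in iGLI2 cells. It lies on chromosome 20 from 57570242 to 57582309 on the minus strand, where NELFCD is annotated on the other strand. CTSZ was 325, 339 and 345 FPKM in iEV libraries and 247, 256 and 258 FPKM in iGLI2 libraries, with no overlap and little spread in either group. Its log2 fold change was -0.41 (SE 0.06). The strand used in counting is not stated, so fragments of overlapping genes on opposite strands cannot be told apart. Overlapping genes on the opposite strand were also annotated for CTSV, CTSD and the family gene CTSC. On the same strand they were annotated for CTSB, CTSD, CTSV and CST3. How fragments in these overlaps were counted is not stated either.

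CTSS, an endopeptidase best known from antigen-presenting cells, where it cuts the invariant chain, was also lower. It lies on chromosome 1 from 150702672 to 150738433 on the minus strand. CTSS was 22.6, 24.9 and 27.3 FPKM in iEV libraries and 17.1, 18.3 and 16.0 FPKM in iGLI2 libraries. The groups did not overlap, and the log2 fold change was -0.52 (SE 0.09). The summed leukocyte markers were lower in iGLI2 libraries too. Among them CD14 averaged 4.64 FPKM in iEV and 1.62 FPKM in iGLI2 libraries, and CD68 3.04 and 2.94 FPKM. PTPRC, found on all leukocytes, was at most 0.0343 FPKM in any library. The part of leukocyte transcripts in the difference of CTSS was not tested. CTSK, the collagen-cutting cathepsin whose gene lies 30.3 kb from CTSS, was below 1 FPKM in all 6 libraries and was not tested.

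CTSD, an aspartic protease and the most abundant member in both groups, lies on chromosome 11 from 1773982 to 1785222 on the minus strand. CTSD was 942, 928 and 836 FPKM in iEV libraries and 680, 898 and 924 FPKM in iGLI2 libraries. The ranges overlapped, and among the iGLI2 libraries replicate 1 alone lay below the iEV range. The log2 fold change was -0.12 (SE 0.13), and without iGLI2 replicate 1 it turned to 0.02.

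**Figure D1:**
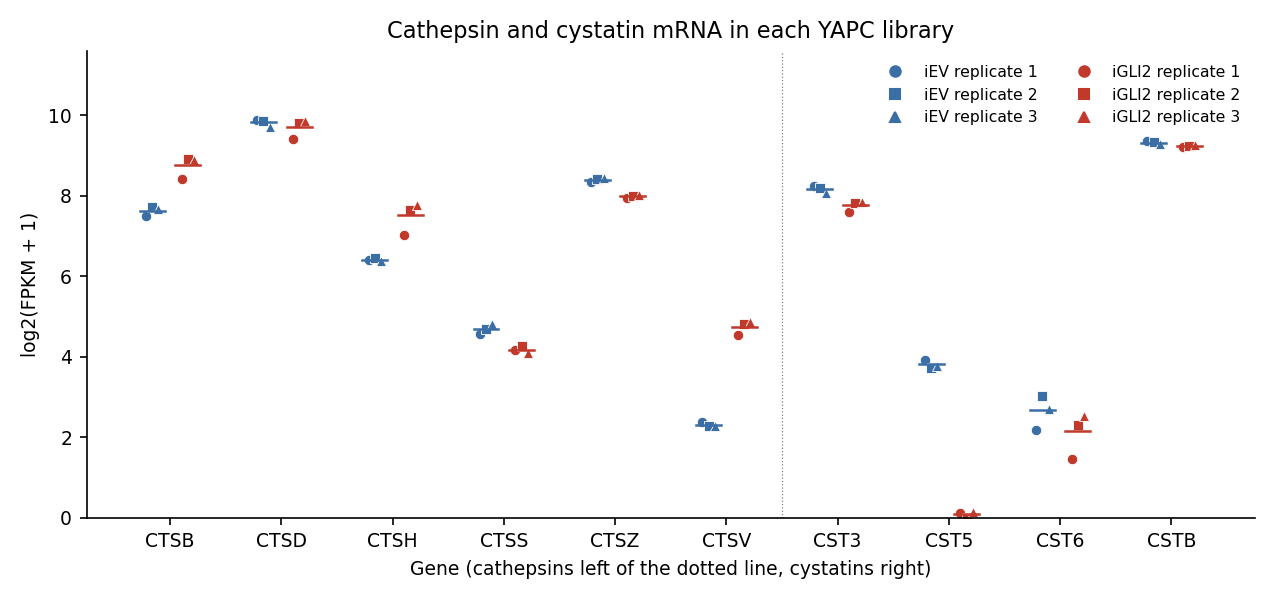
The plot shows each of the 10 genes along the x axis and log2(FPKM + 1) on the y axis, with 1 point per library (blue iEV, red iGLI2, a marker shape per replicate number) and a line at the log2 of the group mean FPKM plus 1. CTSB, CTSH and CTSV sit higher in all 3 iGLI2 libraries, CTSS, CTSZ, CST3 and CST5 sit lower, and the groups of CTSD and CST6 overlap.

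CST5, cystatin D, a secreted inhibitor known mainly from saliva and tears, was the member with the largest decrease. It lies on chromosome 20 of hg19 from 23856572 to 23860380 on the minus strand. CST5 was 14.2, 12.2 and 12.6 FPKM in the iEV libraries. In the iGLI2 libraries it was 0.0884 FPKM in replicate 1, listed at 0 in replicate 2 and 0.112 FPKM in replicate 3. The transcript was thus at least 12.2 FPKM in every iEV library and at most 0.112 FPKM in every iGLI2 library. The log2 fold change was -3.71 (SE 0.09), which placed CST5 at rank 11 among the largest decreases of the 12493 genes tested. With a pseudocount of 0.1 it was -6.37, so its size depends on the value added before the log. A value of 0 is given as listed and not as absence, since the number of reads behind it is unknown.

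CST3, cystatin C, a secreted inhibitor made by nearly all cells, belongs to the same cystatin cluster and lies from 23608534 to 23618685 on the minus strand of chromosome 20. CST3 was 304, 291 and 266 FPKM in iEV libraries and 194, 224 and 230 FPKM in iGLI2 libraries. The groups did not overlap, and the log2 fold change was -0.41 (SE 0.09). The promoters of these cluster members, both lower in iGLI2 cells but by very different amounts, are shown for comparison, again as the 250 bases before the start in RefSeq for GRCh38.p14, 5′ to 3′, with their longest shared run in capitals.
CST5, chr20:23879749-23879998, minus strand: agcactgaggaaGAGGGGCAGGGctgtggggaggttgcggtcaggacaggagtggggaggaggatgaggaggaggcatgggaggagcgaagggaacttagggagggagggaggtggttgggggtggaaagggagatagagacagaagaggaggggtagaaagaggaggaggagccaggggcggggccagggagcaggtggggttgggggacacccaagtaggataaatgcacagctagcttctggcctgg
CST3, chr20:23637956-23638205, minus strand: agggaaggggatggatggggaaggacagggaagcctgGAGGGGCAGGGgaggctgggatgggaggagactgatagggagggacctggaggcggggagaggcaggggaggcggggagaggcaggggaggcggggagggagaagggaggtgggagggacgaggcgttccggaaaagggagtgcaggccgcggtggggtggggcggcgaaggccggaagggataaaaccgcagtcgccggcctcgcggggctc

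The shared run had 11 bases, 238 to 228 bases before the start of CST5 and 213 to 203 before that of CST3, and the pair was identical at 56.8% of 285 aligned columns. Both promoters are rich in G on the strand shown. Both hold GATAAA shortly before the start, a motif chosen after these letters were seen and found on either strand in 8.41% of all 27305 promoters, whereas TATAAA, the letters of the TATA box, was in neither and in 11.1% of all. GACCACCCA was in neither promoter, from which nothing is read for so rare a motif. Promoters of 6 members were matched (CTSD, CTSH, CTSZ, CTSV, CST3 and CST5); CTSB, CTSS, CST6 and CSTB were not. None of the 6 held GACCACCCA or TATAAA. CTSD alone held CACGTG, the E-box core of the element that TFEB binds, which was in 6.49% of all promoters. Since GACCACCCA was in 0.216% of all promoters, finding it in none of 6 was the likely outcome. Its absence does not tell whether GLI2 binds near these genes, and sites farther upstream were not searched.

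CST6, cystatin E/M, a secreted inhibitor of CTSV, CTSL and LGMN, lies on chromosome 11 from 65779462 to 65780976 on the plus strand. It was 3.50, 7.12 and 5.47 FPKM in iEV libraries and 1.75, 3.92 and 4.77 FPKM in iGLI2 libraries. These ranges overlapped, with replicate 1 the lowest library of both groups. The log2 fold change was -0.53 (SE 0.34), and it lay between -0.76 and -0.21 over the alternatives tried.

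CSTB, stefin B, the cytosolic inhibitor, lies on chromosome 21 from 45193546 to 45196256 on the minus strand. It was 653, 640 and 619 FPKM in iEV libraries and 595, 601 and 609 FPKM in iGLI2 libraries. The groups did not overlap but lay close together, and the log2 fold change was -0.08 (SE 0.06). With quantile normalization it was 0.09, so its direction depends on the scaling.

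By level, CTSD and CSTB stood first and second of the 10 in both groups, with 99.3% of the genes tested below CTSD in each group and 99.0% below CSTB. In iEV cells the order then ran CTSZ, CST3, CTSB, CTSH, CTSS, CST5, CST6 and CTSV, and the only neighbors whose libraries overlapped were CST6 and CTSV. In iGLI2 cells it ran CTSB, CTSZ, CST3, CTSH, CTSV, CTSS, CST6 and CST5, and the only neighbors that overlapped were CST3 and CTSH. CTSB thus stood at rank 5 in iEV and rank 3 in iGLI2 cells, CTSV at rank 10 and rank 7, and CST5 at rank 8 and rank 10.

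In the limma fit across all genes, where a call is an adjusted p under 0.05, 3 of the 10 members were called higher with GLI2 induced (CTSB, CTSH and CTSV) and 4 lower (CTSS, CTSZ, CST3 and CST5). Of the 12493 genes tested, 21.9% were called, 10.1% higher and 11.8% lower. The libraries of the groups did not overlap for 8 of the 10 members and for 42% of the genes tested. Nothing is read from these counts for the members, which were chosen on this contrast. Their median log2 fold change was -0.27, against -0.01 over all genes tested. The count of members called was 4 without iEV replicate 2, the lowest of the fits that leave out a library. It was 5 with no filter on low values and 6 with the sample code digit as a term.

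Of the other family genes, 3 were called, all of them higher. The share called was 16.7% of the other cathepsins tested and 50% of the other cystatins tested. Among all genes tested it was 21.9%, with 10.1% called higher. With so few genes tested, nothing is read from these shares. Of 9 further cathepsin genes 6 were tested, and only CTSC was called. CTSC, the dipeptidyl peptidase that activates serine proteases of leukocyte granules, rose from 109, 90.0 and 89.6 FPKM in iEV libraries to 185, 255 and 245 FPKM in iGLI2 libraries, with a log2 fold change of 1.23 (SE 0.15, adjusted p = 0.00337, limma). CTSA, CTSE, CTSF, CTSL and CTSO did not pass, with adjusted p between 0.153 and 0.976 for CTSA, CTSE, CTSL and CTSO and 0.142 for CTSF, whose log2 fold change was 0.68 (SE 0.28). The median over the 6 was 0.12. CTSG, a granule protease of neutrophils, was listed at 0 in every library, and CTSK and CTSW were under the filter.

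Of 14 further genes of the cystatin superfamily 4 were tested, 2 were called higher and none lower, beside 10.1% and 11.8% of all genes tested. CST1, cystatin SN, an inhibitor first known from saliva, was 40.0, 43.7 and 41.4 FPKM in iEV libraries and 113, 159 and 148 FPKM in iGLI2 libraries, a log2 fold change of 1.71 (SE 0.14, adjusted p = 8.84e-04, limma). CST4, cystatin S, was 23.2, 29.4 and 27.1 FPKM against 58.2, 103 and 95.0 FPKM, a log2 fold change of 1.61 (SE 0.23, adjusted p = 0.00576). The iGLI2 libraries of both genes lay well above the iEV libraries, with replicate 1 the lowest of the 3. CST2, cystatin SA, was 42.5, 24.3 and 28.8 FPKM against 16.3, 23.5 and 22.2 FPKM, groups that nearly met but did not overlap, and it was not called (log2 fold change -0.58, SE 0.23, adjusted p = 0.135). CSTA, stefin A, was near 1.3 FPKM in both groups (adjusted p = 0.960). The calls of CTSC, CST1 and CST4 held in all 15 alternatives.

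**Figure D2:**
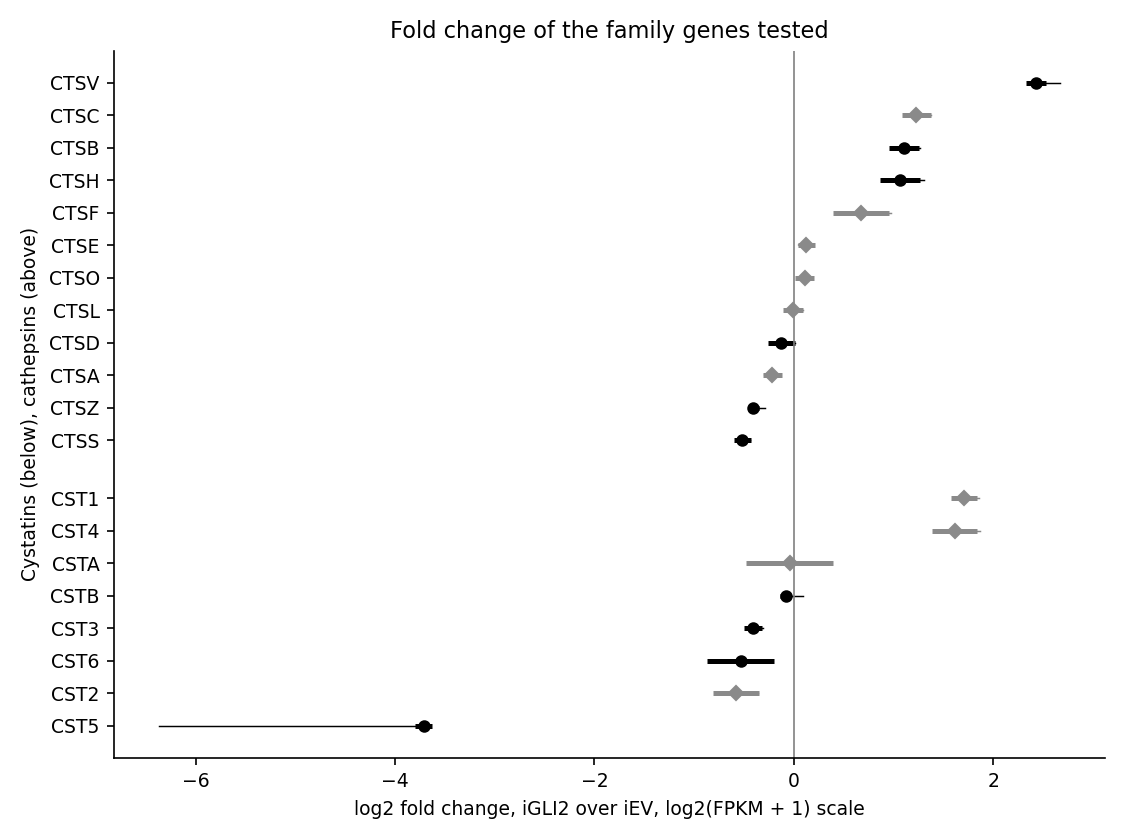
The x axis gives the log2 fold change, iGLI2 over iEV, on the log2(FPKM + 1) scale for the 20 cathepsin and cystatin genes tested, one per row; black circles are the 10 members and grey diamonds the others, thick bars are 1 SE and thin lines the range over the alternatives tried. CTSV stands highest and CST5 lowest, and the long line of CST5 comes from the pseudocount of 0.1.

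The cystatin genes on chromosome 20 thus differed in direction within a short stretch. From the lower coordinate of CST3 to the upper coordinate of CST5 is 251.8 kb of hg19. Distances were taken between the lower coordinates, where these minus-strand genes end. CST4 lies 57.7 kb from CST3, CST1 119.7 kb, CST2 195.9 kb and CST5 248.0 kb. Ordered along the chromosome, CST3 was lower in iGLI2 cells, CST4 and CST1 rose, CST2 was not called, and CST5 was lower. On the other side of CST3, CST9, CST9L, CST8 and CST11 were listed at 0 in every library, and CSTL1 had at most 0.154 FPKM.

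The values of CST1, CST2 and CST4 are uncertain, since their coding sequences are near copies. Identity was 91.3% for CST1 and CST2, 92.7% for CST1 and CST4 and 92.5% for CST2 and CST4, with an identical run of 152 bases between CST1 and CST4, and the handling of reads that match several of them is not stated. Summed, these 3 genes gave 106, 97.3 and 97.3 FPKM in iEV libraries and 187, 286 and 265 FPKM in iGLI2 libraries. The sum was higher in each iGLI2 library than in any iEV library, and whether it depends on that handling was not tested. CST5 was less alike, at 69.1% to 74.4% identity with CST1 to CST4 and identical runs of at most 25 bases.

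**Figure D3:**
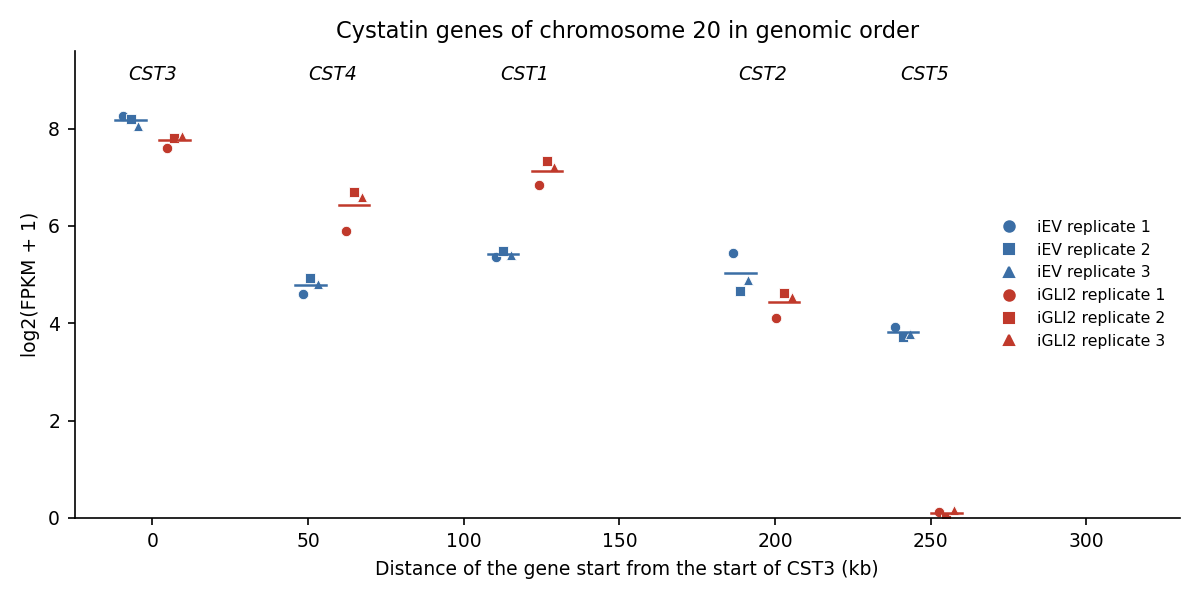
The x axis gives the distance in kb of each cystatin gene from CST3, between their lower hg19 coordinates, which the axis label calls starts. The y axis gives log2(FPKM + 1), with 1 point per library (blue iEV, red iGLI2) and a line at the log2 of the group mean FPKM plus 1. Red points lie below blue for CST3 and CST5 and above for CST4 and CST1; for CST2, which was not called, they lie just below the lowest blue point.

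Added up, the 11 cysteine cathepsin genes gave 803, 838 and 836 FPKM in iEV libraries and 1015, 1335 and 1337 FPKM in iGLI2 libraries, and the groups did not overlap. These sums include the members chosen on this contrast and are given without a test. On average this came to 826 ± 20 FPKM without and 1229 ± 186 FPKM with the GLI2 construct (SD, n = 3). With CTSA, CTSD, CTSE and CTSG added, the 15 genes gave 1739 to 1842 FPKM in iEV and 1752 to 2327 FPKM in iGLI2 libraries, ranges that overlap.

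The make-up of the cysteine cathepsin transcripts differed between the cells. CTSZ accounted for 40.4% to 41.3% of the sum in iEV libraries and 19.1% to 24.4% in iGLI2 libraries. CTSB accounted for 22.4% to 25.0% in iEV and 33.4% to 35.9% in iGLI2 libraries. CTSC went from 10.7% to 13.6% in iEV libraries to 18.2% to 19.1% in iGLI2 libraries. The share of CTSH was 9.84% to 10.4% in iEV and 12.6% to 16.3% in iGLI2 libraries. That of CTSL was 7.69% to 7.83% in iEV and 4.97% to 5.44% in iGLI2 libraries. CTSS made up 2.82% to 3.26% in iEV libraries and at most 1.68% in iGLI2 libraries. The shares did not follow the type of enzyme, since among the endopeptidases that of CTSS was smaller in iGLI2 cells and that of CTSV larger. CTSV, in spite of its large fold change, made up 0.459% to 0.521% of the sum in iEV and 2.04% to 2.20% in iGLI2 libraries.

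Among the secreted cystatins CST1 to CST6, the sum was 381 to 428 FPKM in iEV libraries and 383 to 514 FPKM in iGLI2 libraries, and these ranges overlapped. Within it, CST3 accounted for 69.7% to 71.4% in iEV libraries and 43.6% to 50.6% in iGLI2 libraries. CST1 accounted for 9.37% to 10.9% in iEV libraries and 29.5% to 31.0% in iGLI2 libraries. CST5 made up 3.00% to 3.32% of the sum in iEV libraries and at most 0.0231% in iGLI2 libraries.

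**Figure D4:**
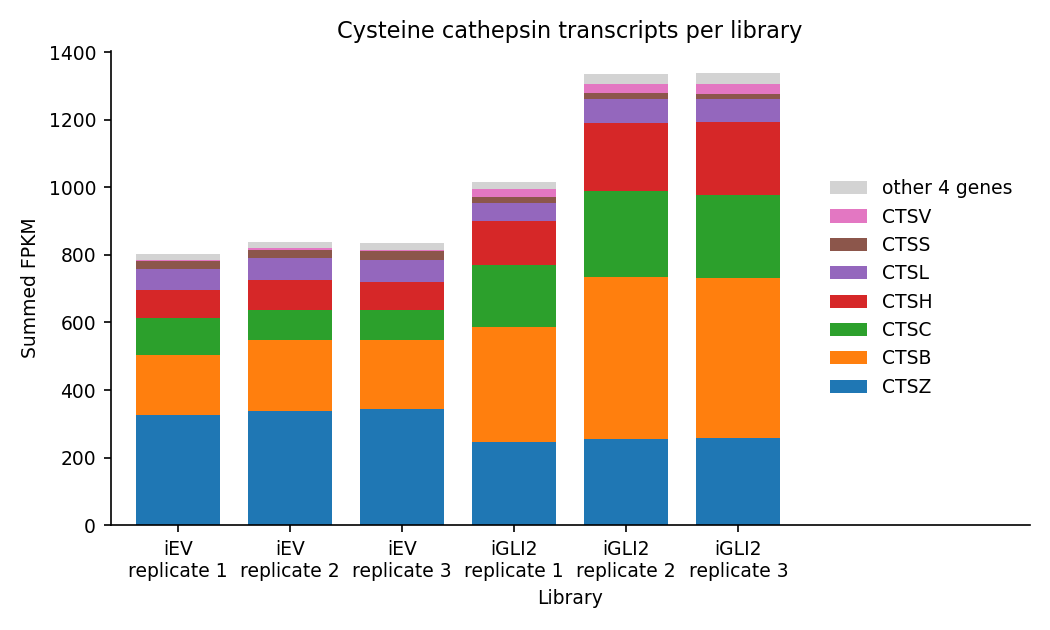
Bars show the summed FPKM of 11 cysteine cathepsin genes (y axis) in each library (x axis), stacked by gene, with the other 4 genes being CTSF, CTSK, CTSO and CTSW. The bars of the 3 iGLI2 libraries, 1015 to 1337 FPKM, are taller than those of the iEV libraries, 803 to 838 FPKM, with a larger part of CTSB, CTSC and CTSH.

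The genes that deliver and mature these enzymes were counted on lists written from general knowledge with earlier results of these data known. Of 20 genes for delivery and maturation, all tested, 3 rose and 2 fell, and the median log2 fold change was -0.06. The share called was 25%, beside 21.9% of all genes tested. SORL1, a sorting receptor that cycles between the Golgi and endosomes, was 98.5, 83.4 and 87.5 FPKM in iEV and 165, 175 and 170 FPKM in iGLI2 libraries, a log2 fold change of 0.91 (SE 0.08, adjusted p = 0.00111, limma). TFEB, the transcription factor of lysosomal genes, rose by 0.79 (SE 0.15, adjusted p = 0.0145), from 3.83 ± 0.90 to 7.30 ± 0.74 FPKM (SD, n = 3; limma). LGMN, the asparaginyl endopeptidase that processes cathepsin precursors and is itself inhibited by CST3 and CST6, was 52.3, 52.8 and 53.3 FPKM in iEV and 69.3, 63.1 and 62.3 FPKM in iGLI2 libraries, a log2 fold change of 0.29 (SE 0.06, adjusted p = 0.0247, limma). The 2 genes that fell encode parts of the coats that bud from the Golgi, GGA2 by 0.42 and AP1M1 by 0.31 on the log2 scale (adjusted p = 0.00862 and 0.0186, limma).

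With a library left out, the count for this list ranged from 1 without iEV replicate 2 to 6 without iGLI2 replicate 1. The call of SORL1 held in all 15 alternatives. Those of TFEB and AP1M1 were lost without iEV replicate 2 or 3 or iGLI2 replicate 2 or 3, with adjusted p from 0.0558 to 0.0614 for TFEB and from 0.0607 to 0.0889 for AP1M1. That of LGMN was lost in 7 of 15, and that of GGA2 only without iEV replicate 2 (adjusted p = 0.0502, limma).

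Genes of the lysosomal membrane and of its proton pump were counted in the same way. Of 27 tested, 2 rose and 2 fell, with a median log2 fold change of 0.04. The share called was 14.8%, beside 21.9% of all genes tested. ATP6AP1 and ATP6V1F, parts of the proton pump, rose by 0.39 and 0.33 on the log2 scale (adjusted p = 0.0166 and 0.0488, limma). LAMP1, a major protein of the lysosomal membrane, fell by 0.27 and TMEM192, another membrane protein, by 0.40 (adjusted p = 0.0321 and 0.0213). None of these 4 calls held in every alternative. Without iEV replicate 2, iEV replicate 3, iGLI2 replicate 2 or iGLI2 replicate 3 the count on this list was 0, without iEV replicate 1 it was 2, and without iGLI2 replicate 1 it was 9.

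Lysosomal hydrolases other than cathepsins also went both ways. Of 34 genes 33 were tested, 4 rose and 3 fell, and the median log2 fold change was -0.01. The share called was 21.2%, beside 21.9% of all genes tested. IDS, which takes sulfate off heparan and dermatan sulfate, was 48.6, 45.0 and 41.4 FPKM in iEV and 118, 127 and 114 FPKM in iGLI2 libraries, a log2 fold change of 1.39 (SE 0.08, adjusted p = 3.81e-04, limma). GALC, a galactosylceramidase, rose by 0.53 (SE 0.06, adjusted p = 0.00244, limma) and ARSA, a sulfatase for sulfatide, by 0.41 (SE 0.08, adjusted p = 0.0145). TPP1, a lysosomal tripeptidyl peptidase and like the cathepsins a protease, was 39.5, 34.5 and 35.2 FPKM in iEV and 20.7, 18.6 and 18.7 FPKM in iGLI2 libraries, a log2 fold change of -0.88 (SE 0.08, adjusted p = 0.00132). The groups of IDS and of TPP1 were well apart.

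SGSH, a sulfatase for heparan sulfate, fell by 0.80 (SE 0.18, adjusted p = 0.0259, limma), and HEXA, a subunit of beta-hexosaminidase, by 0.30 (SE 0.08, adjusted p = 0.0469). The calls of IDS, GALC and TPP1 held in all 15 alternatives. That of HEXA was lost in 11 of 15, that of SGSH without any 1 of the iEV replicates (adjusted p from 0.0616 to 0.0944) and with no filter on low values (adjusted p = 0.0789), and that of ARSA in 4 of 14. The count was 3 without iEV replicate 2 or 3, 4 without iGLI2 replicate 2 or 3 and 11 without iGLI2 replicate 1. Over these 3 lists together, 9 of 80 genes tested rose and 7 fell, beside 10.1% and 11.8% of all genes tested.

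**Figure D5:**
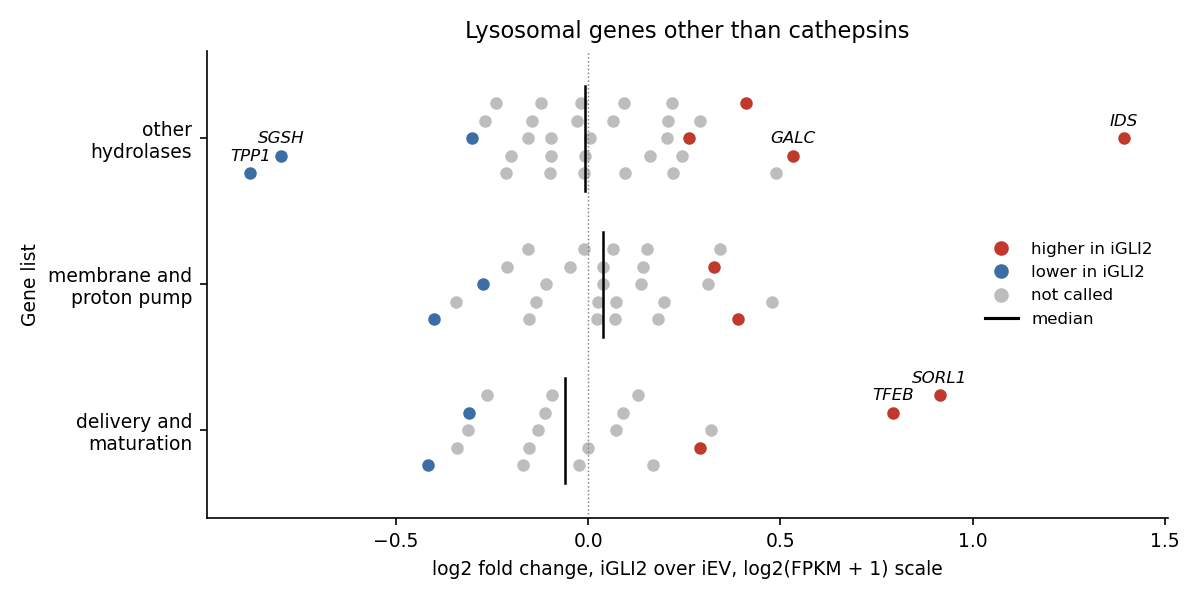
The x axis gives the log2 fold change, iGLI2 over iEV, on the log2(FPKM + 1) scale, with 1 point per gene of 3 lysosomal lists in rows; red and blue points were called higher and lower with GLI2 induced (limma, adjusted p under 0.05), grey points were not called, and black lines are the medians. All 3 medians lie close to 0, and IDS, SORL1 and TFEB stand farthest to the right, TPP1 and SGSH farthest to the left.

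Replicate 1 of the iGLI2 cells, with the lowest GLI2 of its group, was also the lowest of its group for 8 of the 10 members. Over all genes tested it was the lowest for 53.9%. Relative to the mean of iGLI2 replicates 2 and 3 it held 0.713 of CTSB, 0.614 of CTSH, 0.746 of CTSD, 0.804 of CTSV and 0.403 of CST6, but 0.962 of CTSZ, 0.983 of CSTB and 0.995 of CTSS. The exceptions to its low rank were CTSS and CST5. Replicate 1 was also the lowest iEV library for CTSB, CTSS, CTSZ and CST6, but the highest for CTSD, CTSV, CST3, CST5 and CSTB. Across all genes tested, the deviations of the libraries numbered 1 in each group correlated at 0.204, the highest of any pair across the groups. Neither the part of the GLI2 level in these differences nor that of a trait shared by the libraries numbered 1 was tested.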

How the data were processed

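RNA-seq values of 6 libraries, 3 iGLI2 and 3 iEV, were taken from a table of the whole series. The authors trimmed reads with Trimmomatic, aligned them to hg19 and compared groups with cuffdiff; the submitters' processing notes name TopHat2 and Cuffdiff 2.1.1. The annotation, the scaling and the handling of reads with several matches are not given in the sources used here. The deposited values were read as FPKM from their form, as the header names no unit. Reads per library cannot be recovered from them, so the depth is unknown, no counting interval is given and only the spread between libraries measures precision. Total FPKM was 803145 to 889555 in iGLI2 and 981341 to 1.08e+06 in iEV libraries, including small RNA genes.

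Of 27024 entries, 1252 off the primary chromosomes and 330 second entries of a name were dropped. The 12493 genes averaging 1 FPKM or more were log2-transformed after adding 1 and compared in limma 3.58.1 under R 4.3.3 (condition as the only term, intensity trend, two-sided, Benjamini-Hochberg adjustment over all genes tested, threshold 0.05) after the code was tested on simulated data. An exact permutation test of 3 against 3 libraries cannot give p under 0.1. Tables and plots were made with Python 3.11.15, pandas 2.3.3 and matplotlib 3.10.9. Strand and overlaps came from GENCODE lifted to GRCh37, and promoters from RefSeq.

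Members and lists were chosen with earlier results of these data known. The genes named are the 10 members, GLI2, LGMN, the family neighbors CTSK, CTSL, CST1, CST2 and CST4, and per list up to 3 genes in each direction with the largest log2 fold change among those called with groups that do not overlap; others are named as counts of 5 or fewer or to complete a list. Alternatives were a pseudocount of 0.1, no filter, a mean of at least 5 FPKM, upper quartile scaling, quantile normalization, small RNA genes left out with rescaling, limma without the trend, blocking on the replicate number, a term for the sample code's digit, and each library left out.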

Additional observations from a re-analysis of the deposited data

How the results depend on the processing

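The number of genes called was 2742 and ranged from 1222 (without iEV replicate 2) to 3744 (without iGLI2 replicate 1) as libraries were left out, with 1295 without iEV replicate 3, 1362 without iGLI2 replicate 2 and 1492 without iGLI2 replicate 3. Ranges from leaving out a library were 4 to 7 for members called (7 with all libraries), 1 to 2 for other cathepsins (1), 2 to 2 for other cystatins (2), 1 to 6 for delivery and maturation (5), 0 to 9 for membrane and proton pump (4) and 3 to 11 for hydrolases (7). The sample code digit as a term gave 2 for membrane and proton pump. With small RNA genes left out and libraries rescaled, 59.4% of calls were higher, against 46.0%, and the median of the log2 fold changes was 0.06 against -0.01. The log2 fold change of CSTB was then -0.0045 and that of CTSZ -0.33; quantile normalization gave 0.09 and -0.29, and a pseudocount of 0.1 gave 2.67 for CTSV and -6.37 for CST5. Among members, 143 of the values under an alternative moved by less than the replicate spread and 6 by more. The first count is no measure of stability. Changing the filter, dropping the trend or adding a block or digit term cannot move a member's fold change. Leaving out 1 of 3 libraries cannot move it by more than that spread. Among the other named genes, 61 calls under an alternative were lost, 223 kept and none reversed. Same-numbered libraries of the groups correlated in their deviations at 0.204, 0.0919 and 0.0276. The same number was the best partner for iEV replicates 1 and 3, while iEV replicate 2 correlated best with iGLI2 replicate 3 (0.117). These values do not settle whether the numbers mark pairs. The labels do not say so, and pairing was therefore kept as an alternative. The replicate block gave 3928 genes, 2 other cathepsins, 7 delivery and maturation genes and 7 membrane and proton pump genes. Unknown depth limits what can be said of values near 0, such as CST5 in iGLI2 cells.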
